A study of Mus musculus with 6 samples.

Results

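Hippocampal RNA of mice of 2 genotypes, N-cre and N-cre;Fox1, was examined for Gfap and 9 other genes that are used to describe reactive astrocytes, namely Vim, Serpina3n, Lcn2, Cd44, C4b, Osmr, Stat3, S100b and Timp1. The members were all 51 isoforms, of the 133944 in the deposited counts, whose transcript name carries 1 of these 10 gene names, and the isoforms of a gene were summed to give 1 value per gene and mouse for the 10 of 53354 genes. The genes were chosen by name with the results of the same genotype contrast known, and therefore count as selected on these expression values, so the differences of these genes between the genotypes are given here as a description. No p-value is printed for any of them, and nothing is read from how many of them pass a threshold.

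The control group, N-cre, carried only the Nes-Cre transgene, in which the nestin promoter drives Cre recombinase in neural progenitors and their descendants. The N-cre;Fox1 group carried the same transgene and 1 copy of an Rbfox1 cDNA at the Rosa26 locus behind a CAG promoter and a stop cassette that Cre removes, and the study built it as a model of increased Rbfox1, an RNA-binding protein of neurons. There were 3 mice in each group, all 3 months old and labelled C57BL/6, with 1 library of total RNA from the hippocampus per mouse. The floxed allele was made in stem cells of another mouse strain and then backcrossed. The deposited values are RSEM expected counts, which are estimates of the read pairs that came from each isoform.

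Astrocytes are glial cells that take up transmitter, buffer potassium and support vessels and synapses. In injury, infection or degeneration they become reactive: the intermediate filament proteins GFAP and vimentin increase, and secreted proteins, complement components and cytokine receptors are produced. Cytokines of the interleukin 6 family act on astrocytes through receptors that share the gp130 subunit, which activate JAK kinases and the transcription factor STAT3, and Gfap is a known STAT3 target. In the hippocampus Gfap is also expressed at rest, in mature astrocytes and in the radial stem cells of the dentate gyrus.

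The expected counts summed to between 40463587 and 62141336 per mouse. A normalized count is an expected count scaled by the TMM factors of edgeR to the mean library size. Genes with enough counts to be tested numbered 18924, and 5 of them, or 0.0264%, passed an adjusted p of 0.05 by the edgeR quasi-likelihood test (Benjamini-Hochberg over all genes). Summed normalized counts of 15 astrocyte markers ranged from 328763 to 356119 in N-cre and from 335897 to 362384 in N-cre;Fox1 mice, and none of the marker genes was at 0 in every mouse. The 9 choroid plexus markers summed to 121966 in N-cre replicate 3 and 274637 in N-cre;Fox1 replicate 2, and to between 1502 and 2035 in the other 4 mice. Xist was high in replicate 1 of each genotype, at 23514 and 22029 normalized counts, against 17.3 to 22.2 in the other 4. The count of Rbfox1, summed over all its isoforms, did not separate the groups. It was 15286, 14456 and 14698 in N-cre and 15939, 13571 and 15283 in N-cre;Fox1 mice, so the genotype labels were not checked by it. The study itself reported a modest increase of Rbfox1 in the N-cre;Fox1 hippocampus, as mRNA and, by immunoblot, as protein.

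Gfap (ENSMUSG00000020932.14) lies on the reverse strand of chromosome 11 of mm10, from 102887336 to 102900912, and 3 isoforms of it were counted. Gfap-201 (ENSMUST00000067444.9), which encodes the usual GFAP alpha, has 9 exons and a length of 2648 nt, of which 1290 nt are coding. In Gfap-202 (ENSMUST00000077902.4), which encodes GFAP delta, exon 7 is joined to another last exon, from 102890166 to 102891520, within the intron that follows exon 7 of Gfap-201. Gfap-202 has 8 exons, a length of 2600 nt and 1284 coding nt, so the coding lengths are close while the ends of the proteins differ. The last 15 bases of exon 7 (chr11:102891911-102891925, reverse strand) are shown in lower case, and the first 15 bases of exon 8 of each isoform in capitals, since the isoforms part at this junction. Exon 8 begins within chr11:102889506-102889520 in Gfap-201 and within chr11:102891506-102891520 in Gfap-202.
Gfap-201: acctccagatccgagAAACCAGCCTGGACA
Gfap-202: acctccagatccgagGGGGCAAAAGCACCA
Exons 1 to 7 contribute 1176 nt to both isoforms, which is 44.4% of Gfap-201 and 45.2% of Gfap-202. After exon 7, 1472 nt belong to Gfap-201 and 1355 nt to Gfap-202. The greater part of each isoform is thus sequence of its own. The coding part beyond exon 7 spans 128 nt in Gfap-201 and 122 nt in Gfap-202. The third isoform, Gfap-203 (ENSMUST00000127909.1), is a processed transcript of 356 nt with 4 exons and no coding sequence.

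The Gfap promoter was searched for the STAT dimer motif TTCNNNGAA, which reads the same on both strands, in a RefSeq table of 300 bases around gene starts on GRCm38.p6, 250 before and 50 after the start. It occurred once, beginning 2 bases before the start that RefSeq gives and running across it. This start is that of Gfap-202, at 102897200. Gfap-201, which held most of the Gfap counts, starts at 102897131, so the motif lies upstream of its start. The 30 bases around the motif at chr11:102897183-102897212 (reverse strand) are shown with it in capitals, because Stat3 and its receptor are also described here.
Gfap promoter: atgggggtgcTTCCAGGAAgtcaggggcag
Of the 9 member genes with a promoter in this table, 1, Gfap, held the motif, and 2726 of all 32851 promoters, or 8.30%, did. C4b was not in the table.

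Gfap counts were higher in the N-cre;Fox1 mice. These are RNA counts. The study also stained hippocampal sections for Rbfox1 and GFAP protein and described the staining of the 2 genotypes as not different. It gave no quantification of this staining, and it reported that Rbfox1 was not found together with GFAP. The normalized count of Gfap was 24304, 23597 and 22722 in N-cre replicates 1, 2 and 3, and 34277, 28026 and 29773 in N-cre;Fox1 replicates 1, 2 and 3. The lowest N-cre;Fox1 mouse thus lay above the highest N-cre mouse. The means were 23541 ± 792 against 30692 ± 3225 (SD, n = 3 each), a difference of 30.4% and a log2 fold change of 0.38 (SE 0.0700.) The spread between mice was also wider in N-cre;Fox1, with a coefficient of variation of 10.5% against 3.37%, with replicate 1 the highest of the 6. Xist was high in replicate 1 of each genotype, which was also the highest mouse of its genotype for Gfap, and its part in the Gfap counts was not tested. Among the other 4 mice Gfap was 23597 and 22722 in N-cre and 28026 and 29773 in N-cre;Fox1. In bulk RNA, more cells of a type and more RNA per cell cannot be told apart, and this holds for every gene described here. With each mouse left out in turn the log2 fold change of Gfap lay between 0.30 and 0.45, and it was 0.42 without the 2 mice with high choroid plexus counts. A noncoding gene on the opposite strand, Gm26668, covers the whole 13577 nt of Gfap, and its own counts were low, at 64.5 ± 17.4 in N-cre against 70.3 ± 8.49 in N-cre;Fox1 mice (SD, n = 3 each).

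**Figure D1:**
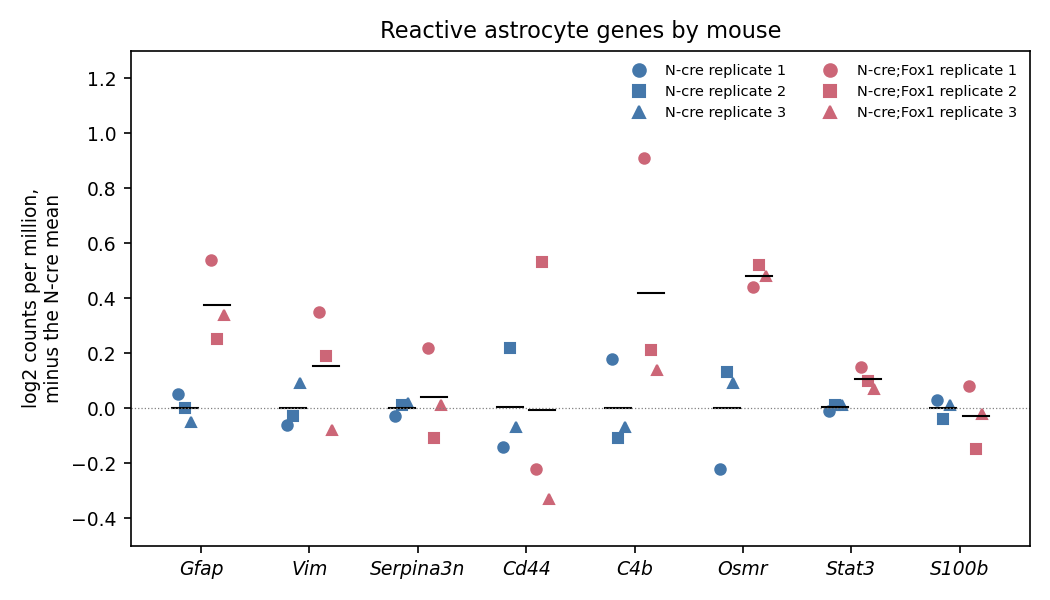
Level of each tested gene in each mouse, as log2 CPM (counts scaled to library size) minus the mean of the N-cre mice (vertical axis). Symbols stand for mice (circle, square and triangle for replicates 1, 2 and 3), blue for N-cre and red for N-cre;Fox1, and horizontal lines for group means of 3 mice. The 3 red points lie above all blue points for Gfap, Osmr and Stat3, and C4b and Cd44 each have 1 N-cre;Fox1 mouse far above the other mice of its group.

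Both coding isoforms of Gfap shared the difference. Gfap-201 had normalized counts of 22332, 21729 and 20875 in N-cre and 31707, 25829.5 and 27374 in N-cre;Fox1 mice. The groups did not overlap, at 21646 ± 732 against 28304 ± 3047 (SD, n = 3 each), with a log2 fold change of 0.39 (SE 0.0786.) For Gfap-202 the counts were 2015, 1891 and 1821 in N-cre and 2558, 2210.3 and 2333 in N-cre;Fox1 mice. Its groups did not overlap either, at 1909 ± 98.6 against 2367 ± 177 (SD, n = 3 each), with a log2 fold change of 0.31 (SE 0.0696.) Gfap-203 stayed near 1 count, at 1.01 ± 0.898 against 0.931 ± 0.0481 (SD, n = 3 each), and was not tested.

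The share of Gfap-202 among all Gfap counts does not depend on library size. It was 8.28%, 8.01% and 8.02% in N-cre and 7.47%, 7.88% and 7.85% in N-cre;Fox1 mice. Every N-cre;Fox1 mouse was below every N-cre mouse, but the shift was small, from 8.10% ± 0.151 to 7.73% ± 0.232 (SD, n = 3 each), or -0.368 percentage points. Expressed as a ratio, there were 11.1, 11.5 and 11.5 counts of Gfap-201 per count of Gfap-202 in N-cre and 12.4, 11.7 and 11.7 in N-cre;Fox1 mice. Replicate 1 of N-cre;Fox1, the mouse with the most Gfap, had the lowest share of Gfap-202, and without it the difference was -0.235 points. With counts divided by isoform length the shares were 8.24% and 7.86%.

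**Figure D2:**
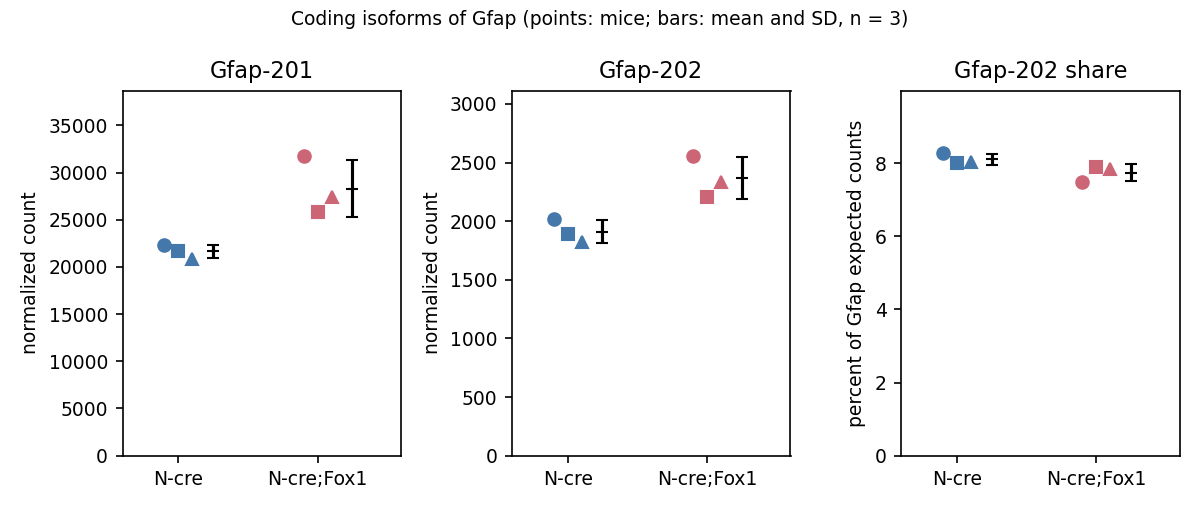
Normalized counts of Gfap-201 (left) and Gfap-202 (middle) and the share of Gfap-202 in percent of all Gfap expected counts (right), for N-cre (blue) and N-cre;Fox1 mice (red). Symbols are mice and bars the mean and SD of 3 mice; both counts are higher in every N-cre;Fox1 mouse, while the share stays between 7.47% and 8.28%.

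Vim (ENSMUSG00000026728.9, chromosome 2, 13573927 to 13582826) encodes vimentin, the filament protein that assembles with GFAP in reactive astrocytes and is also made by endothelium, choroid plexus and meningeal cells. Its normalized counts were 1955, 2003 and 2171 in N-cre and 2603, 2327 and 1930.3 in N-cre;Fox1 mice. The genotypes overlapped, since N-cre;Fox1 replicate 3 was the lowest of all 6 mice. Vim averaged 2043 ± 113 against 2287 ± 338 (SD, n = 3 each), a log2 fold change of 0.16 (SE 0.112), and between 0.06 and 0.27 with each mouse left out. The summed choroid plexus markers were high in N-cre replicate 3, the highest N-cre mouse for Vim, and in N-cre;Fox1 replicate 2. Without these 2 mice the log2 fold change of Vim was 0.20. Vim-201 (ENSMUST00000028062.7) held 91.2% ± 1.11 against 90.3% ± 2.19 (SD, n = 3 each) of the counts.

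Among the receptors, Osmr (ENSMUSG00000022146.12, chromosome 15, 6813577 to 6874969) was higher in the N-cre;Fox1 mice. Osmr encodes the oncostatin M receptor subunit that pairs with gp130. Its normalized counts were 205, 261 and 254 in N-cre and 325, 343 and 333 in N-cre;Fox1 mice. The 3 N-cre;Fox1 mice lay close together and above all N-cre mice. The means were 239.9 ± 30.2 against 334 ± 8.95 (SD, n = 3 each), which is 39.2% higher, with a log2 fold change of 0.48 (SE 0.117.) Leaving out each mouse in turn gave 0.38 to 0.55. Nearly all of these counts were assigned to Osmr-201 (ENSMUST00000022746.12), 1 of 6 isoforms and the 1 that was tested, at 237 ± 29.7 against 324 ± 9.80 (SD, n = 3 each), again without overlap.

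Cd44 (ENSMUSG00000005087.17, chromosome 2, 102811141 to 102901665), a hyaluronan receptor of the cell surface, had normalized counts of 214, 275 and 225 in N-cre and 203, 343 and 188 in N-cre;Fox1 mice. The N-cre;Fox1 group held the highest and both of the lowest values, and the log2 fold change was 0.04 (SE 0.240.) It ranged from -0.28 to 0.20 with each mouse left out, and without the 2 mice with high choroid plexus counts, of which N-cre;Fox1 replicate 2 has the most Cd44, it was -0.31. The standard isoform Cd44-203 (ENSMUST00000099673.8, 9 exons) took up 28.2% ± 10.5 of the Cd44 counts in N-cre against 45.8% ± 4.15 in N-cre;Fox1 mice (SD, n = 3 each). Its shares of 16.1%, 35.0% and 33.5% did not overlap with 45.0%, 42.1% and 50.3%. Cd44-207 (ENSMUST00000111194.7, 14 exons) had 71.8% ± 10.5 against 53.7% ± 4.10 (SD, n = 3 each). All 2848 nt of Cd44-203 are also part of Cd44-207, and the part that RSEM's division of reads between the isoforms has in these shares was not tested. The counts of Cd44-203 were 68.8 ± 31.4 against 110.2 ± 30.0 (SD, n = 3 each) and overlapped, as did those of Cd44-207.

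Stat3 (ENSMUSG00000004040.16), the transcription factor downstream of the oncostatin M receptor, lies on chromosome 11 from 100885098 to 100939540. Its normalized counts were 2433, 2473 and 2466 in N-cre and 2734, 2642 and 2581 in N-cre;Fox1 mice. The N-cre mice differed little from each other, and all N-cre;Fox1 mice were above them. The difference was nevertheless small, 2458 ± 21.4 against 2652 ± 76.7 (SD, n = 3 each), or 7.92%, with a log2 fold change of 0.11 (SE 0.0369.) Of 14 Stat3 isoforms 7 were tested, and Stat3-203 (ENSMUST00000127638.7, with 2310 coding nt), which held most of the counts, was higher without overlap at 2247 ± 27.3 against 2411 ± 63.6 (SD, n = 3 each). Stat3-202, which has a shorter coding part of 2166 nt, had a share of 1.71% in N-cre and 1.83% in N-cre;Fox1 mice and overlapped.

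C4b (ENSMUSG00000073418.4, chromosome 17, 34728380 to 34743882) encodes complement component 4, a secreted protein of the classical pathway. Its normalized counts were 2109.6, 1720.1 and 1770.2 in N-cre and 3499.6, 2155 and 2051 in N-cre;Fox1 mice. The groups overlapped, because N-cre replicate 1 exceeded N-cre;Fox1 replicate 3, and N-cre;Fox1 replicate 1 stood far above the rest. The means were 1867 ± 212 against 2568 ± 808 (SD, n = 3 each), with a log2 fold change of 0.46 (SE 0.262.) Without N-cre;Fox1 replicate 1 the log2 fold change was 0.17. Xist was high in the 2 mice with the most C4b of their genotype, the replicates numbered 1, and its part in the result was not tested. Between these 2 mice C4b was 2109.6 in N-cre and 3499.6 in N-cre;Fox1, and among the other 4 mice it was 1720.1 and 1770.2 in N-cre and 2155 and 2051 in N-cre;Fox1. The paralogue C4a, with which reads could be shared, had 199 ± 27.7 against 202 ± 8.02 (SD, n = 3 each) normalized counts.

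Of the 3 C4b isoforms, the full-length C4b-201 (ENSMUST00000069507.8) held 97.7% and 96.6% of the counts. The short C4b-203 (ENSMUST00000173669.1), annotated as a retained intron at the 3′ end, did not overlap between the genotypes, at 52.5, 29.6 and 17.0 normalized counts in N-cre and 87.7, 54.6 and 57.3 in N-cre;Fox1 mice. It shares 465 of its 749 nt with C4b-201.

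**Figure D3:**
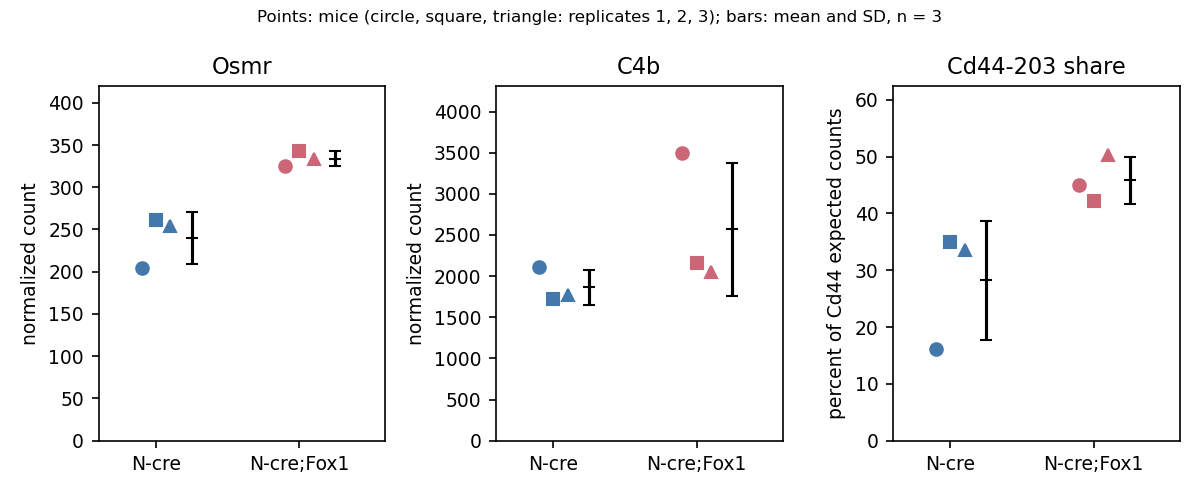
Normalized counts of Osmr (left) and C4b (middle) and the share of Cd44-203 in percent of Cd44 expected counts (right) in N-cre (blue) and N-cre;Fox1 mice (red). Symbols are mice and bars the mean and SD of 3 mice; Osmr does not overlap, C4b has 1 mouse at 3499.6, and the Cd44-203 share lies between 16.1% and 35.0% in N-cre and between 42.1% and 50.3% in N-cre;Fox1 mice.

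Serpina3n (ENSMUSG00000021091.8, chromosome 12, 104406729 to 104414329), a serine protease inhibitor that is among the strongest markers of reactive astrocytes after injury, did not follow Gfap. Its normalized counts were 2706, 2777 and 2792 in N-cre and 3206, 2547 and 2778 in N-cre;Fox1 mice. N-cre;Fox1 replicate 1 was the highest and replicate 2 the lowest of all 6 mice. The log2 fold change was 0.04 (SE 0.0785), and changed sign, to -0.05, when replicate 1 was left out. The other Serpina3 genes, with which reads could be shared, reached at most 123 normalized counts in any mouse.

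S100b (ENSMUSG00000033208.7, chromosome 10, 76253853 to 76261159), a calcium-binding protein that astrocytes make at rest, had normalized counts of 4663, 4462 and 4621 in N-cre and 4847, 4123 and 4521 in N-cre;Fox1 mice. The N-cre;Fox1 mice spanned the whole N-cre range, and the log2 fold change was -0.03 (SE 0.0541.)

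The secreted proteins Lcn2 (chromosome 2, 32384633 to 32388252), an iron-siderophore carrier of inflammation, and Timp1 (chromosome X, 20870166 to 20874735), an inhibitor of matrix metalloproteases, were close to the limit of detection. Lcn2 had expected counts of 15, 1 and 7 in N-cre and 9, 3 and 0 in N-cre;Fox1 mice, where a count of 0 allows up to 3 counts. Timp1 had 10, 5 and 5 in N-cre and 9, 4 and 1 in N-cre;Fox1 mice. Neither had enough counts to be tested. No N-cre;Fox1 mouse exceeded 9 expected counts of either gene, so no large rise was seen. A small difference or a decrease could not be detected at these counts. Timp1 lies inside a gene on the opposite strand, Syn1, a neuronal gene with a mean near 29528 normalized counts in N-cre mice, and whether the counting used strand is not given in the sources used here.

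Levels of different genes can be compared per transcript length, as TPM, a length-scaled share of all transcripts, computed here from counts and annotated lengths. Gfap was the most abundant, at a mean of 483 TPM over the 6 mice and a range from 406 to 606, above 98.7% of the genes tested. S100b followed at 144 TPM, Serpina3n at 63.9, Vim at 56.3, Stat3 at 30.2 and C4b at 22.9. Cd44 and Osmr were far lower, at 2.91 and 2.58 TPM, and Timp1 and Lcn2 were at 0.314 and 0.289 TPM. Ranges over mice did not overlap between Gfap and S100b, between S100b and Serpina3n, between Vim and Stat3, between C4b and Cd44, or between Osmr and Timp1. The ranges of Serpina3n and Vim, of Stat3 and C4b, of Cd44 and Osmr, and of Timp1 and Lcn2 overlapped over the 6 mice. Within the N-cre mice Serpina3n, at 61.3, 63.2 and 63.8 TPM, lay above Vim, at 51.4, 53.2 and 56.4. Stat3, at 28.5, 28.0 and 29.1 there, lay above C4b, at 21.9, 17.1 and 16.9. The other pairs overlapped in N-cre mice too. In N-cre alone Gfap was at 418 ± 12.2 (SD, n = 3) TPM and in N-cre;Fox1 mice at 548 ± 51.0 (SD, n = 3).

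**Figure D4:**
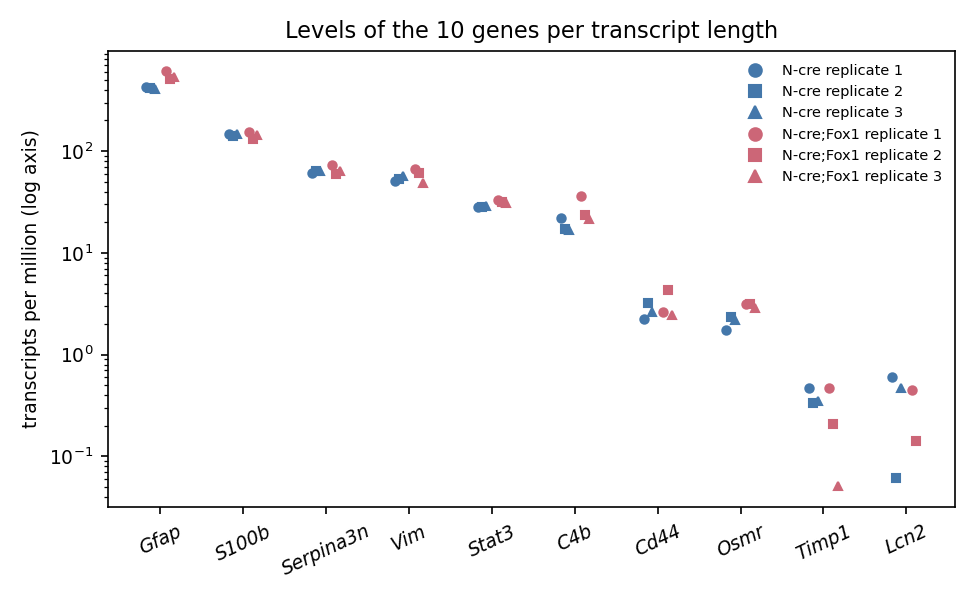
TPM (vertical log axis) of the 10 genes in each mouse, ordered by their mean, with N-cre in blue and N-cre;Fox1 in red. Gfap lies between 406 and 606 in all mice, Timp1 and Lcn2 below 1, and the N-cre;Fox1 mouse with 0 Lcn2 counts is not drawn.

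As a group, 8 of the 10 genes were tested, and 0 of them had an adjusted p under 0.05 by the edgeR quasi-likelihood test, where 0.0264% of all genes did. At an unadjusted p under 0.05 there were 3, Gfap, Osmr and Stat3, against 6.19% of all genes tested, and the same 3 were higher without overlap between the genotypes, against 12.2% of all genes without overlap and 6.06% without overlap and higher. The rule used this contrast, so nothing is read from these counts. Of the 8 log2 fold changes 7 were above 0, with a median of 0.14 against -0.00 for all genes tested. The rule bears on these values too, and nothing is read from them. DESeq2's Wald test gave 1 of the 8, Gfap, an adjusted p under 0.05 and 0.264% of all genes, and limma-voom none of the 8 and 0.0264%. Tested isoforms numbered 7 for Stat3, 5 for Vim, 3 for C4b, 2 each for Gfap and Cd44, and 1 each for Serpina3n, Osmr and S100b. Among these, 0 passed an adjusted p of 0.05 by the edgeR quasi-likelihood test, which also gave 0% of all 50556 isoforms. At an unadjusted p under 0.05 in this test there were 4, against 4.78% of all. These were Gfap-201, Gfap-202, Osmr-201 and Stat3-203, all higher, against 2.62% of all isoforms. Together with C4b-203 they did not overlap between the genotypes, against 11.5% of all isoforms, and 5.85% were higher without overlap.

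Gfap and the other reactivity genes did not rank the mice alike. N-cre;Fox1 replicate 1 was the highest of the 6 mice for Gfap, Vim, Serpina3n, C4b, Stat3 and S100b, but was the lowest of its group for Osmr and stood below the N-cre mean for Cd44. The Pearson correlation of log2 CPM with Gfap over the 6 mice, given as a description, was 0.93 for Stat3, 0.87 for C4b, 0.74 for Osmr, 0.60 for Vim, 0.55 for Serpina3n, 0.18 for S100b and -0.26 for Cd44. These points share their libraries and the genotype difference. By this correlation Stat3, C4b, Osmr and Vim ranked 55, 192, 690 and 1508 of 13736 genes. High values were not limited to reactivity genes, since the 15 general astrocyte markers ranged from -0.48 for Aldh1l1 to 0.96 for Slc1a2. The 5 genes most like Gfap among the 13736 genes whose mean normalized count reached 100 were Thrsp at 0.998, Serpine2 at 0.993, Cxxc1 and Serbp1 at 0.992, and Gpr37l1 at 0.987.

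Other genes of astrocyte reactivity were taken from lists of pan-reactive genes, neuroinflammatory (A1) genes, injury (A2) genes, genes of the gp130 and JAK-STAT3 pathway and complement genes. Without the members these held 58 genes, of which 52 were tested. None of the 52 had an adjusted p under 0.05 by the edgeR quasi-likelihood test, while 3 passed an unadjusted p of 0.05, Aspg, H2-D1 and Clu, all higher in N-cre;Fox1 mice, where 3.59% of all genes were higher at that threshold. DESeq2's Wald test called 1 of them, Clu, and limma-voom 0. The median log2 fold change of the 52 was 0.04, with 33 above and 19 below 0. The median of the 8 members was 0.14. They were chosen with this contrast known, so nothing is read from the difference between the medians.

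The pan-reactive list has 13 genes and includes 7 of the members. Of its genes 10 were tested, 5 of them members, and 9 had a log2 fold change above 0, with a median of 0.28. Because the members were chosen with this contrast known, nothing is read from this count or this median. Aspg, an asparaginase, had 118 ± 10.5 normalized counts in N-cre against 158 ± 4.74 in N-cre;Fox1 mice (SD, n = 3 each), with a log2 fold change of 0.41 and an adjusted p of 0.712 by the edgeR quasi-likelihood test. S1pr3, a sphingosine phosphate receptor, had a log2 fold change of 0.18 without overlap. The small heat shock protein gene Hspb1 had one of 0.48, but N-cre;Fox1 mice varied by 41.2% of their mean and overlapped with N-cre. Steap4, at 0.38, and Cp, at -0.06, overlapped too.

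The A1 and A2 lists were centred close to 0. For 12 A1 genes the median log2 fold change was 0.06, with 8 above and 4 below 0, from -0.30 for Fkbp5 to 0.52 for C3, both overlapping between the genotypes. Of the 12 A1 genes 2, H2-D1 and Psmb8, were higher without overlap. H2-D1, a class I histocompatibility gene, was at 1692 ± 30.1 against 1881 ± 118 (SD, n = 3 each), with an adjusted p of 0.764 by the edgeR quasi-likelihood test. Psmb8 had a log2 fold change of 0.17. For 10 tested A2 genes the median was 0.04, and the 1 gene without overlap, the lipopolysaccharide coreceptor Cd14, was lower, at 86.7 ± 6.35 against 69.3 ± 7.60 (SD, n = 3 each). Of all genes tested, 12.2% did not overlap between the genotypes, and 6.06% did not overlap and were higher.

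Along the pathway of Osmr and Stat3, the other tested genes had log2 fold changes closer to 0 than that of Osmr. This difference between genes was not tested, and Osmr was chosen with this contrast known. Of 17 tested genes, 2 had an unadjusted p under 0.05 by the edgeR quasi-likelihood test, against 6.19% of all genes, and both were members, so nothing is read from this count. Il6st, which encodes gp130, had a log2 fold change of 0.10 (SE 0.0462), Jak2 one of 0.08 and the receptor gene Cntfr one of -0.08, each overlapping between the genotypes. Among 14 tested complement genes the median was 0.02. Clu, a secreted chaperone that astrocytes make in quantity, was higher without overlap, at 38146 ± 2248 against 45150.4 ± 2260.1 (SD, n = 3 each), with a log2 fold change of 0.24 and an adjusted p of 0.453 by the edgeR quasi-likelihood test.

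Among 8 filament genes that are partners of GFAP and vimentin or neuronal filaments, Nes, which encodes nestin, differed in the direction of Gfap. It had 740.5 ± 41.4 normalized counts in N-cre against 958 ± 72.1 in N-cre;Fox1 mice (SD, n = 3 each), with a log2 fold change of 0.37, an unadjusted p of 0.000436 and an adjusted p of 0.330 by the edgeR quasi-likelihood test. Both groups carry a transgene with the nestin promoter, and its part in the Nes counts was not tested. It was the 1 gene of the 8 with an unadjusted p under 0.05, against 6.19% of all genes, and DESeq2's Wald test also called 1 of the 8, Nes, against 0.264% of all genes. The median of the 8 was -0.01, with Synm at -0.09 and Plec at -0.06.

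**Figure D5:**
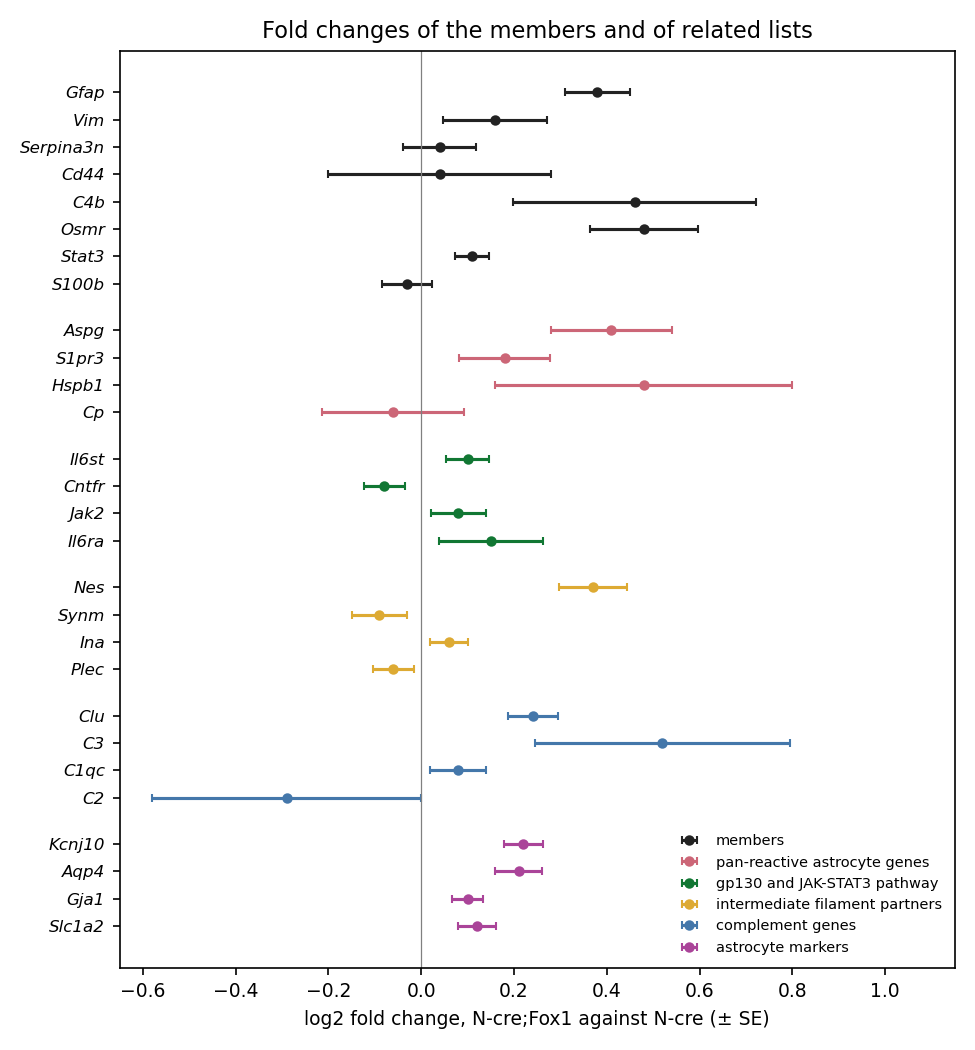
Log2 fold change of N-cre;Fox1 against N-cre mice (horizontal axis), with its standard error as bars, for the 8 tested members and for up to 4 genes with the smallest p-values of each of 5 related lists. Gfap, C4b and Osmr lie between 0.38 and 0.48, Serpina3n, Cd44 and S100b within 0.04 of 0, and the standard errors of Cd44, C4b, Hspb1, C3 and C2 are wide.

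General astrocyte markers, which do not measure reactivity, gave a mixed result beside Gfap. Of 15 genes 8 had a log2 fold change above 0 and 7 below, the median was 0.02, and none had an adjusted p under 0.05 by the edgeR quasi-likelihood test, while 4 were higher and 1 lower at an unadjusted p under 0.05, against 6.19% of all genes in either direction and 3.59% higher. The higher ones were the potassium channel Kcnj10 at 0.22, the water channel Aqp4 at 0.21, the glutamate transporter Slc1a2 at 0.12 and the gap junction gene Gja1 at 0.10, and the lower one was the growth factor receptor gene Fgfr3 at -0.21, whose counts overlapped between the genotypes. DESeq2's Wald test called 2 of the 15, against 0.264% of all genes, and limma-voom 0. The difference of Gfap between these mice was larger than that of any of the 15 markers, which ranged from -0.21 to 0.22. The difference between the genes was not tested, and Gfap was chosen with this contrast known.

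Lists of markers of other cells had medians close to 0, apart from the choroid plexus list. The median log2 fold change was 0.01 over 12 microglia genes, 0.09 over 11 endothelial and pericyte genes, 0.03 over 9 meningeal genes, 0.00 over 9 oligodendrocyte genes, -0.02 over 10 neuron genes, all of them below 0, and 1.10 over 9 choroid plexus genes. Across these 6 lists, no gene passed an adjusted p of 0.05 by the edgeR quasi-likelihood test, DESeq2 or limma-voom. An unadjusted p under 0.05 was found in edgeR for 1 endothelial and pericyte gene, Vtn, and 1 oligodendrocyte gene, Mobp. Both were higher in N-cre;Fox1 mice, where 6.19% of all genes passed that threshold and 3.59% passed it and were higher. Without the 2 mice high in choroid plexus counts, Gfap, Osmr, Stat3 and C4b had log2 fold changes of 0.42, 0.51, 0.12 and 0.53. With all mice these were 0.38, 0.48, 0.11 and 0.46, and the part of choroid plexus tissue in them was not tested. The summed microglia markers were between 21688 and 22617 in N-cre and between 21449 and 23479.6 in N-cre;Fox1 mice and overlapped.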

How the data were processed

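Hippocampal RNA-seq of 6 mice was used, 3 per genotype. After trimming (Cutadapt 1.18) and mapping to mm10 (STAR 2.5.2b), the authors deposited the expected counts that RSEM 1.3.0 gave for 133944 isoforms, neither normalized nor filtered. Libraries were made with a stranded total RNA kit. Genotype and replicate number came from the sample labels.

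Expected counts were summed by gene name where genes were tested, rounded, and filtered with filterByExpr of edgeR 4.0.16 (minimum count 10, minimum total 15). The genotypes were compared by the edgeR quasi-likelihood test (robust, TMM, genotype as the only term) and Benjamini-Hochberg adjustment over all genes or isoforms tested, at a threshold of 0.05. Each mouse is a separate animal with its own tag, so the spread includes that between animals. The fits were tested on simulated data, and the outcome is not reported here. Lengths and positions were read from GENCODE M21, later than the authors' release, where 130826 isoforms keep identifier and version, and TPM therefore differ from those of RSEM. Promoters are from RefSeq on GRCm38.p6.

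The members and lists were chosen with earlier results of these data known. Named were all members as gene sums, all Gfap isoforms, isoforms with at least 10% of a gene or no overlap between genotypes, likely sources of shared reads, the 5 genes most like Gfap, and up to 4 genes of each list with the smallest p. Alternatives were DESeq2 1.42.0, limma-voom (limma 3.58.1), other normalizations, filters and rounding, the replicate number as a block, each mouse left out, and, chosen after seeing the data, both mice with high choroid plexus counts left out. Totals were 40463587 to 62141336 counts per mouse. Counting error depends on a gene's own count: it is small for Gfap, at 17367 to 34771 expected counts, but not for Osmr and Cd44, at 194 to 377 and 172 to 377.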

Additional observations from a re-analysis of the deposited data

How the results depend on the processing

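The log2 fold changes of Gfap, Vim, C4b, Osmr and Stat3 kept their sign under all 15 alternatives. Those of Serpina3n changed sign under 1, of S100b under 2 and of Cd44 under 4, and all 120 values moved by less than the spread between mice. Of the 8 tested members, 0 had an adjusted p under 0.05 by the edgeR quasi-likelihood test, against 1, Gfap, with no filter beyond 1 count and 1, Gfap, in DESeq2's Wald test. Among their isoforms 0 were called in edgeR and 1, Gfap-201, in DESeq2. Of the other reactivity genes 0 were called, against 1 with no filter, 1 in DESeq2 and up to 1 with a mouse left out, namely Fkbp5 without N-cre;Fox1 replicate 1. Over all genes 5 were called, against 45 with no filter, 50 in DESeq2 and 2 to 29 with each mouse left out, where 29 was without N-cre;Fox1 replicate 1, 2 was without N-cre replicate 2, and 3 was without either of the mice numbered 3. Over all isoforms 0 were called, against 10 with no filter, 6 with at least 10 counts in every mouse, 1 with unrounded counts and 215 in DESeq2. The cause of these changes was not tested. CPM without length left 3 of 10 members at their rank by TPM. Deviations from the group means of mice with the same replicate number correlated at 0.38, -0.10 and -0.21. Those of mice with different numbers correlated at between -0.37 and 0.44. The deviations within a group of 3 sum to 0, so these values cannot decide whether the numbers pair the mice. With the replicate number as a block 5 genes and 0 isoforms were called, and C4b joined Gfap, Osmr and Stat3 at an unadjusted p under 0.05.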

Other observations

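The genes with levels most like those of Gfap over the 6 mice were not reactivity genes of the lists. Thrsp, a nuclear protein of lipid synthesis, had 1374 ± 28.7 normalized counts in N-cre against 1780.2 ± 178 in N-cre;Fox1 mice (SD, n = 3 each), and ranked the 6 mice in the same order as Gfap. Serpine2, a secreted protease inhibitor, had 7259 ± 125 against 8129 ± 472 (SD, n = 3 each). Gpr37l1, a receptor of astrocytes, had 9787 ± 35.9 against 11432 ± 833 (SD, n = 3 each). Cxxc1 and Serbp1 differed less between the genotypes, with log2 fold changes of 0.04 and 0.06. The 5 genes were picked for their likeness among 13736, so their correlations carry no test.

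The summed meningeal markers were 8508 in N-cre;Fox1 replicate 2, the mouse with the most choroid plexus counts and the most Cd44, and between 4840.1 and 6283 in the other 5 mice. Slc13a4, 1 of these markers, was at 1732 normalized counts in this mouse. It was at 912 in N-cre replicate 3, the other mouse with high choroid plexus counts, and between 258 and 424 in the rest. Another, Col1a1, was at 715 in N-cre;Fox1 replicate 2 and 759 in N-cre replicate 1. The part of the meningeal markers in the Cd44 counts was not tested.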
